A study of Mus musculus with 4 samples.

Results

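The genes that write, copy, protect and erase DNA methylation were followed in 2-cell mouse embryos: the methyltransferase genes Dnmt1, Dnmt3a, Dnmt3b and Dnmt3l, the maintenance and protection factors Uhrf1, Dppa3 and Zfp57, and the dioxygenases Tet1, Tet2 and Tet3. They were chosen by name as known members of this machinery, and all 10 were found among the 30049 genes of the deposited table. Zygotes of wild-type BDF1*BDF1 F2 mice, taken 18 h after injection of human chorionic gonadotropin (hCG), spent 24 h in the embryo culture medium KSOM, either alone (control embryos) or with 2% dimethyl sulfoxide, a solvent (DMSO-treated embryos). RNA was sequenced from 50 embryos of each group, so a value is that of a pool of embryos, and each group had 2 libraries. The labels do not say that the libraries of a group came from separate cultures, so a p-value here measures the spread between libraries, which may be technical. All values are TPM, an abundance scaled for transcript length and for the total of each library, which can be compared between genes, but which keeps no sequencing depth.

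After fertilization the genome loses most of the methylation it received from the gametes. DNMT1, brought to newly copied DNA by UHRF1, copies existing methylation, whereas DNMT3A and DNMT3B add it anew and DNMT3L, which has no catalytic activity of its own, assists them. The TET enzymes oxidize methylated cytosine, and TET3 is the member stored in the oocyte and active on the paternal genome of the zygote. DPPA3 (also named STELLA or PGC7), another product stored in the oocyte, guards the maternal genome against TET3 and holds UHRF1 out of the nucleus, and ZFP57 keeps methylation at imprinted regions.

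The libraries were checked against their labels before the genes were compared. Genes known for their burst in 2-cell embryos were present in every library, with a summed level over 5 genes of 648.6 and 443.5 TPM in the control libraries and 1919 and 1385 TPM in the DMSO libraries. Tcstv3 was the most abundant of them, and Zfp352, Tcstv1 and Tcstv3 passed the test as higher in DMSO-treated embryos. Zscan4c also had DMSO values above both control values but did not pass (log2 fold change 0.78, adjusted p = 0.108, limma). Zscan4d overlapped between groups (log2 fold change -0.05, adjusted p = 0.910, limma). Tcstv1 and Tcstv3 share part of their sequence, as do Zscan4c and Zscan4d, so reads may be divided between them. Transcripts stored in the oocyte (6 genes, led by Bmp15, an oocyte growth factor) summed to 188.9 and 108.9 TPM in control and 697.5 and 393.1 TPM in DMSO-treated embryos. Bmp15 was up-regulated (adjusted p = 0.0221), and carried most of the rise in the sum. Gdf9 and Ooep also had DMSO values above both control values without passing the test. The log2 fold changes of Zp3 and Padi6 were instead -0.42 and -0.80 (adjusted p = 0.402 and 0.352, limma). Nlrp5 reached at most 0.142 TPM in any library, but it shares sequence with Nlrp5-ps, a pseudogene listed higher, so its reads may be divided. Markers of cumulus and granulosa cells, the somatic cells around the oocyte, were near 0: their 8 genes summed to between 0.932 and 2.42 TPM, led by Tnfaip6, 6 of them stayed below 1 TPM in every library, and Amh was listed at 0 throughout. The 4 sperm markers, led by Prm2, summed to 2.84 and 3.38 TPM in control and 13.4 and 8.48 TPM in DMSO-treated embryos. Prm2 and Tnp1 passed the test as higher, although Tnp1 was at most 0.282 TPM in control embryos and reached the level required for the test only through the DMSO libraries, and Tnp2 was listed at 0 in every library. The part of these shifts in the results below was not tested. In RNA from whole embryos, a change in the RNA per embryo and a change in the mixture of embryos cannot be told apart.

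None of the 9 members that could be tested passed the threshold (limma on log2(TPM + 1), adjusted p below 0.05 over the 12038 genes that averaged 1 TPM or more). At an unadjusted p below 0.05, 1 of the 9 members passed, and 4835 of the 12038 genes did. The background was broad: 20.5% of all genes tested were called, 6.42% higher and 14.1% lower in DMSO-treated embryos. The member nearest to the threshold was Tet3, with an average of 4.68 ± 1.59 TPM in control and 13.6 ± 5.29 TPM in DMSO-treated embryos (SD, n = 2), or 2.90-fold higher. The groups did not overlap for 5 members, of which Tet3 was higher and Dnmt3a, Dnmt3b, Zfp57 and Tet1 were lower in DMSO-treated embryos. Such separation was common, at 31.1% of all genes tested in the higher direction, 38.7% in the lower and 69.8% in either. The median log2 fold change was -0.06 over the 9 members, 4 of them above 0 and 5 below, and -0.09 over all genes tested.

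**Figure D1:**
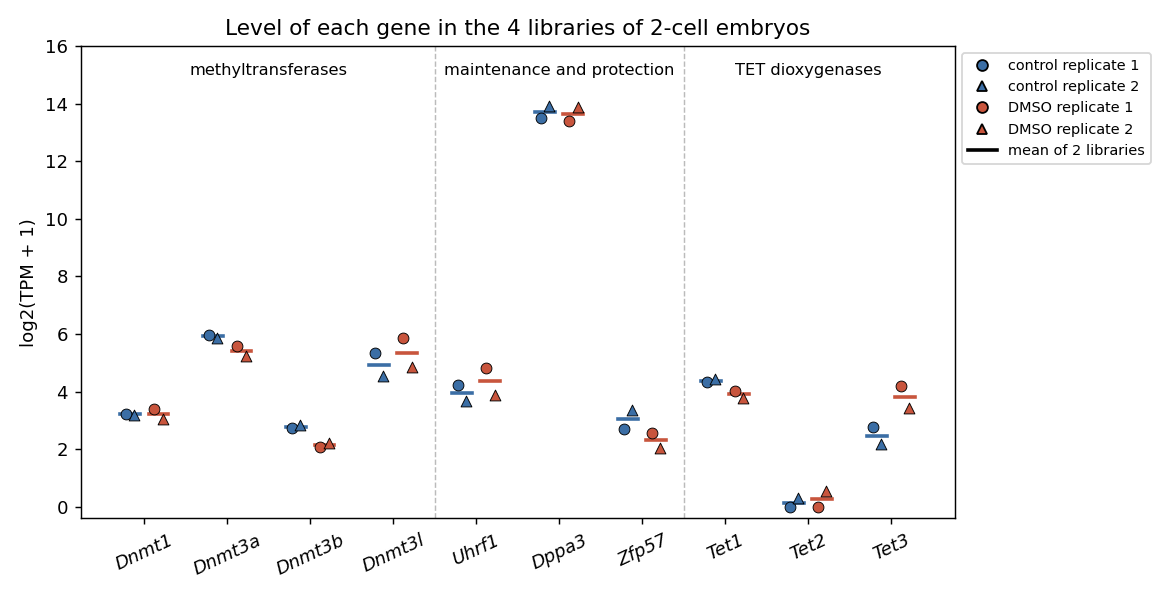
Level of each of the 10 genes in the 4 libraries, as log2(TPM + 1), with control embryos in blue, DMSO-treated embryos in red, circles for replicate 1, triangles for replicate 2 and a line at the mean of the 2 libraries. Dppa3 stands far above the rest, Tet2 lies near 0, and the red points of Tet3 lie above both blue ones.

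The members spanned the range of the transcriptome. In control embryos the order of levels was Dppa3, Dnmt3a, Dnmt3l, Tet1, Uhrf1, then Dnmt1, Zfp57, Dnmt3b and Tet3, and last Tet2. The ranges of neighbours overlapped from Dnmt1 to Tet3 and did not overlap elsewhere. In DMSO-treated embryos the order was Dppa3, Dnmt3l, Dnmt3a, Uhrf1, Tet1, Tet3, Dnmt1, Zfp57, Dnmt3b and Tet2, and neighbours overlapped between Dnmt3l and Dnmt3a, among Uhrf1, Tet1 and Tet3, and between Zfp57 and Dnmt3b. Tet3 thus stood below Dnmt1 in both control libraries and above it in both DMSO libraries. The 10 genes together made up 1.54% and 1.98% of the summed TPM of the control libraries and 1.43% and 1.92% of that of the DMSO libraries, nearly all of it Dppa3.

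Promoters are shown for 4 of the 5 members whose groups did not overlap, because the number of CpG dinucleotides, the sites of methylation, differs widely among them. They were taken from RefSeq (GRCm38.p6), which gave a promoter for 9 of the 10 members, and each is the 250 bases before an annotated start, read 5′ to 3′ on the strand of the gene, with each CG in capitals. Methylation itself was not measured in these libraries.
Tet3, chr6:83441679-83441928, minus strand: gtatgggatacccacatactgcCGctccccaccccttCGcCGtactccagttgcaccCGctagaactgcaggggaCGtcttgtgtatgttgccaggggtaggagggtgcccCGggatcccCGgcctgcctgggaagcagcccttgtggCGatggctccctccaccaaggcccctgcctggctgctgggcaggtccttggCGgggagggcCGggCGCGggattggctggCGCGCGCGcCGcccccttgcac
Dnmt3a, chr12:3806730-3806979, plus strand: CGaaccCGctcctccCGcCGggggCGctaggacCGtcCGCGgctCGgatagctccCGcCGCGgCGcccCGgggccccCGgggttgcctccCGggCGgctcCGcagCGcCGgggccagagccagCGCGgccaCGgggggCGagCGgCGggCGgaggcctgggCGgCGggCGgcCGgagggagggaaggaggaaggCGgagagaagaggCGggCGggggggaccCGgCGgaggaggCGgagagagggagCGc
Dnmt3b, chr2:153649199-153649448, plus strand: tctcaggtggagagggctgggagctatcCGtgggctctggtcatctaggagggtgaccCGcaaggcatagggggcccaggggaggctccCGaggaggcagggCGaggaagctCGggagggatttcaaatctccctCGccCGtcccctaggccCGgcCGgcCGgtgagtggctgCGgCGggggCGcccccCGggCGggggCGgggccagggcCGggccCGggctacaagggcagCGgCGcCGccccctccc
Zfp57, chr17:37000913-37001162, plus strand: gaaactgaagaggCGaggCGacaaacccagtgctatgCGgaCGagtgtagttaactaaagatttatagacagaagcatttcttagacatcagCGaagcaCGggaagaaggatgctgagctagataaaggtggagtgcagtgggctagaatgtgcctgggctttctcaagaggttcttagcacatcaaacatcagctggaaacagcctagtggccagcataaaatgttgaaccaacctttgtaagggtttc
The window shown for Tet3 held 17 CG, that for Dnmt3a 38, that for Dnmt3b 21 and that for Zfp57 6. RefSeq gave further starts for Dnmt3a, whose other windows held 40 and 15 CG, and for Zfp57, with 7 and 3. Over all 32851 promoters the median was 6, with quartiles of 2 and 16, and as many CG as in the Dnmt3a window were found in 1.88% of promoters, as in the Dnmt3b window in 16.3%, as in the Tet3 window in 23.5% and as in the Zfp57 window in 50.4%. The Tet3 window lies inside the annotated Tet3 gene, before a downstream start, and overlaps an exon of the noncoding gene B230319C09Rik on the other strand. The Dnmt3a window also lies inside its annotated gene, before a downstream start, and those of Dnmt3b and Zfp57 lie just before theirs. These 3 windows overlap no annotated exon. The Tet1 window, which overlaps a Tet1 exon and is not shown, held 15 CG. The densest window of any member was that of Tet2, with 51 CG. The 3 windows of Dnmt3l held between 3 and 5. Whether the number of CG goes with the level of a gene was not tested.

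The de novo methyltransferase gene Dnmt3a (chr12:3806007-3914443 on GRCm38) was the most abundant catalytic member. It was measured at 62.3 and 56.6 TPM in control embryos and at 47.4 and 36.6 TPM in DMSO-treated embryos. Both DMSO libraries lay below both control libraries, and the log2 fold change of -0.50 (SE 0.27, 95% interval -1.16 to 0.15) did not pass the test (adjusted p = 0.208, limma). Dnmt3b (chr2:153649450-153687730), the other de novo enzyme, stood about an order of magnitude lower, at 5.68 and 6.11 TPM in control and 3.18 and 3.62 TPM in DMSO-treated embryos. Its groups were also apart, with replicates closer to each other than to the other group, and the fitted log2 fold change was -0.65 (SE 0.31, 95% interval -1.40 to 0.10, adjusted p = 0.169, limma). A total of 13.5% of the 31-base words in its transcripts also occur in Dnmt3c, a recent copy of Dnmt3b that acts in male germ cells. Dnmt3c itself was listed at 2.27, 0.268, 0.745 and 0.519 TPM in control replicates 1 and 2 and DMSO replicates 1 and 2, so reads of the pair may be divided between them. The ratio of Dnmt3a to Dnmt3b was 11.0 and 9.26 in control and 14.9 and 10.1 in DMSO-treated embryos, and overlapped between groups.

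Dnmt3l (chr10:78041947-78063622), the cofactor, differed more between replicates than between groups. It was measured at 39.5 and 22.2 TPM in control and at 57.6 and 27.7 TPM in DMSO-treated embryos, so that replicate 1 exceeded replicate 2 by 1.78-fold in control and by 2.08-fold in DMSO-treated embryos. The log2 fold change was 0.42 (SE 0.44, 95% interval -0.64 to 1.48, adjusted p = 0.497, limma). On the opposite strand it overlaps Aire, which stayed between 1.47 and 3.48 TPM in the 4 libraries, and the cDNA kit used does not mark strand. Dnmt1 (chr9:20907209-20959888), the maintenance enzyme, was measured at 8.44 and 8.07 TPM in control and at 9.53 and 7.27 TPM in DMSO-treated embryos. The groups overlapped completely, with both control values between the DMSO values, and the log2 fold change of 0.01 (SE 0.31) had a 95% interval of -0.73 to 0.76 (adjusted p = 0.978, limma). That interval lies within a 2-fold change in either direction, which was true of 2 members (Dnmt1 and Dppa3) and of 13.3% of all genes tested.

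The make-up of the methyltransferase mRNA was compared after the levels had been seen, and is given as a description. Dnmt3a supplied 53.8% and 60.9% of the summed TPM of the 4 genes in control embryos and 40.2% and 48.7% in DMSO-treated embryos. Dnmt3l supplied 34.0% and 23.8% in control and 49.0% and 36.8% in DMSO-treated embryos. The ratio of Dnmt3l to Dnmt3a was 0.633 and 0.391 in control and 1.22 and 0.756 in DMSO-treated embryos, without overlap. Dnmt1 held between 7.29% and 9.68% in every library. The summed level of the 4 genes was 115.9 and 92.91 TPM in control and 117.7 and 75.12 TPM in DMSO-treated embryos, and overlapped between groups.

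**Figure D2:**
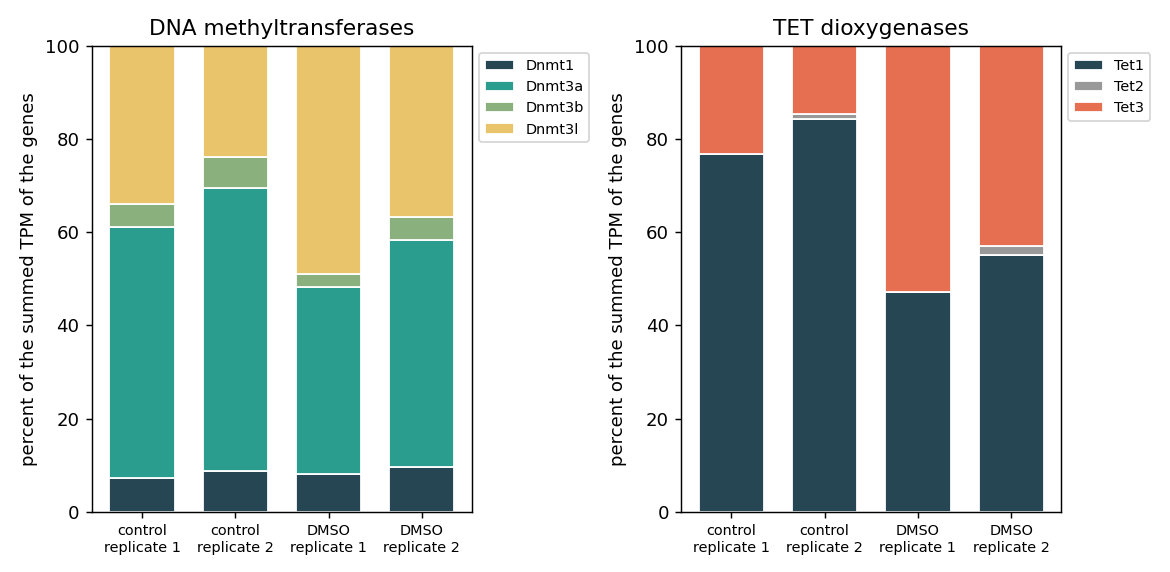
Share of each gene in the summed TPM of the methyltransferase genes (left) and of the TET genes (right), one bar for each of the 4 libraries, in percent. Tet3 takes 23.2% and 14.6% of the TET sum in control embryos and 52.8% and 42.9% in DMSO-treated embryos.

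Uhrf1 (chr17:56303321-56323486), which guides DNMT1 to hemimethylated DNA, resembled Dnmt3l. It was measured at 17.7 and 11.7 TPM in control and at 27.6 and 13.8 TPM in DMSO-treated embryos, so that DMSO replicate 2 fell between the control libraries. The log2 fold change was 0.42 (SE 0.41, 95% interval -0.56 to 1.40, adjusted p = 0.466, limma). It shares 24.2% of its 31-base words with other genes, chiefly Gm5648, a copy that was listed at 0 in all libraries. The ratio of Uhrf1 to Dnmt1 was 2.10 and 1.45 in control and 2.89 and 1.90 in DMSO-treated embryos.

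Dppa3 (chr6:122626410-122630272) was among the 10 most abundant genes of every library. It was measured at 11640 and 15350 TPM in control and at 10830 and 15220 TPM in DMSO-treated embryos, ranks 5 and 2 and ranks 10 and 8 among all genes. In both groups replicate 2 was the higher, and the values of the groups interleaved. The log2 fold change was -0.06 (SE 0.30, 95% interval -0.78 to 0.67, adjusted p = 0.895, limma). Quantile normalization, which replaces each level by that of its rank, gave -0.70 (adjusted p = 0.126, limma). Of its 31-base words, 29.4% occur in other genes, mostly in Dppa3-ps, a pseudogene listed between 2.17 and 3.65 TPM.

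Zfp57 (chr17:37001163-37010635), the zinc finger protein of imprinted regions, was measured at 5.56 and 9.29 TPM in control and at 4.98 and 3.11 TPM in DMSO-treated embryos. Both DMSO values were the lower, but control replicate 1 lay nearer to them than to control replicate 2. The log2 fold change of -0.73 (SE 0.38, 95% interval -1.65 to 0.19) did not pass the test (adjusted p = 0.199, limma). It shares no 31-base word with another gene.

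Tet3 (chr6:83362373-83459084), the dioxygenase of the zygote, was measured at 5.81 and 3.56 TPM in control embryos and at 17.3 and 9.84 TPM in DMSO-treated embryos. Both DMSO libraries lay above both control libraries, and the ratio of DMSO to control was 2.98 in replicates 1 and 2.76 in replicates 2. The log2 fold change of 1.34 (SE 0.40, 95% interval 0.39 to 2.29) stood at percentile 93.0 of all genes tested. Its p was 0.0128, and 0.0559 after adjustment (limma), so Tet3 narrowly missed the threshold of 0.05. It passed with genes under a mean of 5 TPM left out (adjusted p = 0.0453), a mean that Tet3 reached only through the DMSO libraries, after median-ratio scaling (0.0489) and after quantile normalization (0.0454). It did not pass with a pseudocount of 0.1 (0.0600), without a filter on low values (0.160) or without the mean-variance trend (0.0598). Without the filter, none of the 22257 genes tested passed, so that setting cannot set Tet3 apart from other genes. Leaving out a library gave log2 fold changes from 0.96 (without DMSO replicate 1) to 1.72 (without DMSO replicate 2). Such a fit leaves 1 library in a group, so it cannot decide whether Tet3 passes.

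Tet1 (chr10:62804570-62908996), the dioxygenase best known from embryonic stem cells and germ cells, was measured at 19.3 and 20.6 TPM in control and at 15.5 and 12.6 TPM in DMSO-treated embryos. The groups did not overlap, and the log2 fold change was -0.48 (SE 0.29, 95% interval -1.17 to 0.20, adjusted p = 0.241, limma). Tet2 (chr3:133463679-133545139), the dioxygenase best known from blood cells, was listed at 0 in replicate 1 of both groups and at 0.236 TPM (control) and 0.459 TPM (DMSO) in replicate 2. It was below the mean of 1 TPM required for the test.

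Within the TET family, Tet1 mRNA exceeded Tet3 mRNA in both control libraries, and the levels were close to each other in DMSO-treated embryos. The ratio of Tet3 to Tet1 was 0.302 and 0.173 in control embryos and 1.12 and 0.780 in DMSO-treated embryos, a gap that is a description, since the pair was chosen after the values were seen. The share of Tet3 in the summed TET level was 23.2% and 14.6% in control and 52.8% and 42.9% in DMSO-treated embryos, and the sum itself was 25.07 and 24.39 TPM in control and 32.78 and 22.92 TPM in DMSO-treated embryos. The sums overlapped and the shares did not. Bmp15, the most abundant of the oocyte markers, was also higher in DMSO-treated embryos, at 543.8 and 285.4 TPM against 102.2 and 55.98 TPM in control, and the relation of these shifts to Tet3 was not tested. Of the 5 oocyte markers tested, 3 (Bmp15, Gdf9 and Ooep) had both DMSO values above both control values, Zp3 had both below, and Padi6 overlapped between groups, as did Dppa3.

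**Figure D3:**
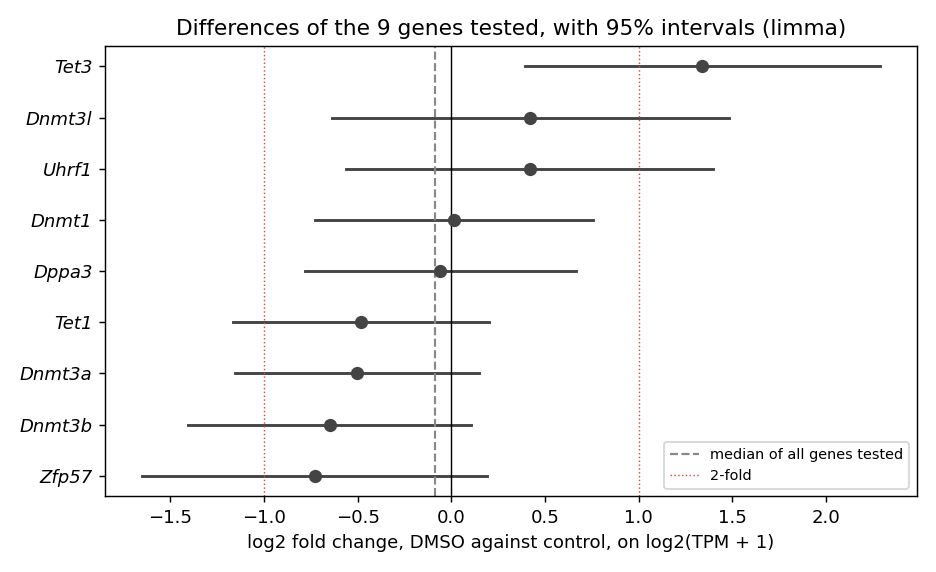
Log2 fold change of the 9 genes tested, DMSO-treated against control embryos on the log2(TPM + 1) scale, with 95% intervals from limma, the median of all genes tested (dashed grey) and 2-fold changes (dotted red). The interval of Tet3 alone does not reach 0, and those of Dnmt1 and Dppa3 alone lie within the 2-fold lines.

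Other genes of the pathway were read from the same fit, in 8 groups by role. Of 69 listed genes, 68 were in the table and 58 could be tested. Of these, 1 was up-regulated and 7 were down-regulated in DMSO-treated embryos, against 6.42% and 14.1% of all genes tested, and their median log2 fold change was -0.36. Fewer of the 58 passed in every fit that left out 1 library, and so did fewer of all genes. Such a fit leaves 1 library in a group and has less power. It therefore cannot show that a call rests on a particular library. None of the 58 passed without the filter on low values, and none of all genes tested did.

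Among the 7 partners of maintenance methylation, 6 were tested and 1 was down-regulated. This was Xpo1, the nuclear export receptor by which DPPA3 holds UHRF1 in the cytoplasm, at 251.0 and 291.7 TPM in control and 99.15 and 120.6 TPM in DMSO-treated embryos. Both DMSO values were far below the lower control value (log2 fold change -1.30, SE 0.26, adjusted p = 0.0250, limma). The median of the 6 was -0.30.

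The chromatin partners of de novo methylation, 7 genes of histone marks linked to de novo methylation, had the lowest median, -0.98. Both genes called were down-regulated. Setd2, which writes the H3K36 trimethylation of gene bodies, was measured at 96.3 and 75.7 TPM in control and 34.5 and 28.3 TPM in DMSO-treated embryos (log2 fold change -1.42, SE 0.28, adjusted p = 0.0250, limma). Ehmt1, a methyltransferase of H3K9, was measured at 46.1 and 67.8 TPM in control and 22.9 and 27.2 TPM in DMSO-treated embryos (log2 fold change -1.13, SE 0.30, adjusted p = 0.0449, limma). For both genes the DMSO values lay below both control values, and the control replicates were further apart for Ehmt1 than for Setd2. The group was not uniform, since the DMSO values lay below the control values for 5 of the 7 genes and above them for the others, against 38.7% and 31.1% of all genes tested.

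The imprint protection partners had a median of -0.72 over the 6 genes tested, and none passed the test. All 6 had DMSO values below both control values, as did 38.7% of all genes tested. Trim28, the corepressor recruited by ZFP57, was the most abundant, at 525.4 and 566.4 TPM in control and 303.8 and 380.5 TPM in DMSO-treated embryos (log2 fold change -0.68, SE 0.25, adjusted p = 0.0934, limma). Arid4a, a chromatin protein linked to imprinting, had the largest difference, at 1.70 and 4.77 TPM in control and 1.33 and 0.765 TPM in DMSO-treated embryos (log2 fold change -0.96, SE 0.46, adjusted p = 0.166, limma). Control replicate 1 of Arid4a lay close to the DMSO values, whereas for Trim28 the gap between groups was the wider. Zfp445, a second zinc finger protein of imprinted regions, was listed at 0 in all libraries.

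Of the TET regulators, 6 were tested and none passed, with a median of 0.16. Cul4b, a scaffold of the ubiquitin ligase that modifies TET proteins, was the most abundant at 124.6 and 116.7 TPM in control and 165.5 and 147.4 TPM in DMSO-treated embryos (log2 fold change 0.37, SE 0.24, adjusted p = 0.286, limma). Ogt, the enzyme that attaches N-acetylglucosamine to proteins and binds TET proteins, was measured at 34.0 and 51.3 TPM in control and 20.7 and 27.7 TPM in DMSO-treated embryos (log2 fold change -0.78, SE 0.32, adjusted p = 0.123, limma).

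The repair and deamination genes, through which oxidized or deaminated bases are replaced, held the only pathway gene called higher. Gadd45g, a stress-inducible gene of a family linked to demethylation by repair, was measured at 5.92 and 3.66 TPM in control and 11.5 and 15.6 TPM in DMSO-treated embryos (log2 fold change 1.34, SE 0.35, adjusted p = 0.0428, limma). Its size was that of the Tet3 difference, with less spread between replicates. Xrcc1, the scaffold of base excision repair, fell from 3.77 and 3.63 TPM in control to 0.231 TPM and a listed 0 in DMSO-treated embryos (log2 fold change -2.08, SE 0.34, adjusted p = 0.0209, limma). It was low in control embryos and reached the level required for the test only through them, and the added pseudocount of 1 understates its fold. The median of the 13 tested was -0.42. Tdg, which excises oxidized cytosine, was at most 0.146 TPM in any library (named after its values were seen).

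Of the methyl-CpG readers, 5 were tested and 1 was down-regulated, with a median of 0.24. Mbd3, a subunit of the NuRD complex that itself binds methylated DNA poorly, was measured at 54.4 and 57.0 TPM in control and 25.3 and 31.5 TPM in DMSO-treated embryos (log2 fold change -0.96, SE 0.27, adjusted p = 0.04995, limma), at the edge of the threshold. In the methyl donor supply, 5 genes were tested and 1 was down-regulated, with a median of -0.63. Mat2a, the catalytic subunit of the enzyme that makes S-adenosylmethionine, was measured at 84.8 and 77.3 TPM in control and 31.8 and 35.9 TPM in DMSO-treated embryos (log2 fold change -1.24, SE 0.26, adjusted p = 0.0278, limma). The values of Mat2b, its regulatory subunit, overlapped at 81.7 and 61.0 TPM in control and 107.2 and 57.2 TPM in DMSO-treated embryos. Ahcy, which clears the product of methylation in every cell, was listed at 0 in all libraries, so a listed 0 in these values does not show that a transcript is absent. Of its 31-base words, 71.4% occur in other genes, chiefly Gm4737, which was listed at 0.260 TPM at most.

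The germline genes that promoter methylation keeps silent in somatic cells had the highest median, 0.52 over 10 genes tested, with 8 above 0 and none passing the test. Some of these genes are also stored in the oocyte. Dazl, an RNA-binding protein of germ cells, had the largest difference, at 22.2 and 10.2 TPM in control and 72.1 and 30.0 TPM in DMSO-treated embryos (log2 fold change 1.56, SE 0.52, adjusted p = 0.0746, limma). Its replicates differed by more than 2-fold in each group, yet both DMSO values exceeded both control values. Brdt, a bromodomain protein of the testis, was the most abundant at 310.7 and 170.3 TPM in control and 548.0 and 281.8 TPM in DMSO-treated embryos, and its groups overlapped (log2 fold change 0.77, SE 0.42, adjusted p = 0.214, limma). The sums of oocyte markers given above were also higher in DMSO-treated embryos, mostly through Bmp15. Their relation to this group was not tested.

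**Figure D4:**
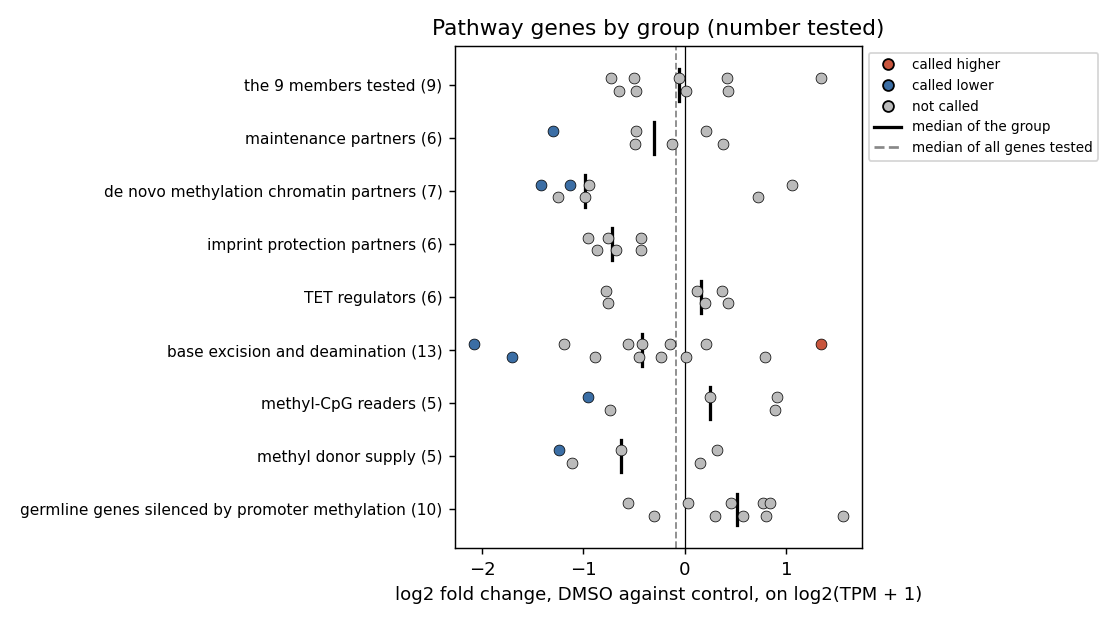
Log2 fold change of each gene tested, DMSO-treated against control embryos on the log2(TPM + 1) scale, for the 9 members and the 8 groups of pathway genes, with genes called higher in red, genes called lower in blue, others in grey and a black line at the median of each group. The medians run from -0.98 for the chromatin partners of de novo methylation to 0.52 for the germline genes, and the dashed line marks -0.09 for all genes tested.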

How the data were processed

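The authors made cDNA from embryo lysates with a kit for low RNA input that does not mark strand, sequenced 50 bp reads, quantified transcripts with kallisto on the Ensembl GRCm38 (mm10) transcriptome and deposited TPM summed per gene with tximport. The TPM keep no depth, so no counting interval was derived; the tabulated genes summed to 768174 and 780527 TPM in control and 772487 and 799166 TPM in DMSO libraries. The authors tested genes with DESeq2 on counts, which were not used here.

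GENCODE (GRCm38) named 29589 of 30049 identifiers. Expression as log2(TPM + 1) was compared by limma 3.58.1 for genes averaging 1 TPM or more (R 4.3.3; lmFit, eBayes with trend, Benjamini-Hochberg adjustment over all 12038 genes at 0.05), in steps tested on simulated data. With 2 libraries a group, an exact permutation test cannot go below p = 0.33. The members and lists were chosen with earlier results of these data known. The text names all members and, in each other group, the genes called and, where fewer than 2 were, also the most abundant gene and that with the largest fold change; 1 gene called lower is counted but not reported here. Shared sequence was counted as 31-base words of a gene's GENCODE transcripts, on either strand, found in other genes. Figures were drawn with matplotlib 3.10.9. Alternatives were another pseudocount, filter, scaling or variance model, the replicate block and leaving out each library.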

Additional observations from a re-analysis of the deposited data

How the results depend on the processing

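With 2 libraries in each group and no counts, small differences could not be resolved. Without a filter on low values, 0 genes were called over all genes (0 higher, 0 lower) and 0 of the pathway genes (0 higher, 0 lower), with 22257 genes tested and 5368 at an unadjusted p below 0.05 (limma). Of all genes tested, 2470 were called as reported (773 higher, 1697 lower), 871 higher and 1363 lower after median-ratio scaling, and 1076 higher and 1121 lower after quantile normalization. Of the members, 1 was called under a mean of at least 5 TPM, median-ratio scaling and quantile normalization, in each case Tet3 as higher (1 higher). Of the pathway genes, 2 were called higher under a mean of at least 5 TPM and 2 under quantile normalization, against 1 as reported. The fits that left out 1 library (where the lone library of a group is assumed to vary like the others) called 0 to 1883 genes in all, 0 to 607 higher and 0 to 1276 lower, and 0 to 5 pathway genes, 0 to 1 higher and 0 to 4 lower. In these fits the log2 fold change turned direction for Dnmt1 (-0.16 to 0.19), Dppa3 (-0.30 to 0.19), Dnmt3l (-0.095 to 0.94) and Uhrf1 (-0.057 to 0.89), none of them called. The cause of these changes was not tested.

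Both groups use the same replicate numbers, but the labels do not say that libraries of one number belong together. The difference between replicates 1 and 2 in control correlated with that in DMSO-treated embryos at 0.35 across genes. With 2 pairs this does not settle whether they belong together. With the replicate block, 5132 genes were called (2151 higher, 2981 lower), 1 member (1 higher) and 23 pathway genes (7 higher, 16 lower). Combinations with this block were chosen after seeing the data. The block with median-ratio scaling called 5168 genes (2305 higher, 2863 lower), 1 member (1 higher) and 22 pathway genes (7 higher, 15 lower). The block with quantile normalization called 4732 genes (2354 higher), 2 members (1 higher, 1 lower) and 21 pathway genes (10 higher, 11 lower). The member called lower was Dppa3 (log2 fold change -0.70, adjusted p = 0.0258, limma), and Tet3 was called higher in each of these 3 fits (adjusted p = 0.00843 with the block alone, 0.00891 and 0.0104 with the scalings).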

Other observations

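The genes beside Dppa3 on chromosome 6 of GRCm38 were read after their values had been seen, because Apobec1 of the deamination list lies there. Gdf3, a growth factor gene 16.3 kb from Dppa3, was down-regulated, from 4.82 and 3.09 TPM in control to 0.395 and 0.473 TPM in DMSO-treated embryos (log2 fold change -1.77, SE 0.36, adjusted p = 0.0265, limma), although it reached the level required for the test only through the control libraries. Apobec1, an RNA-editing deaminase 24.0 kb away, was listed at 0.748 and 0.645 TPM in control and at 0 in both DMSO libraries, below the level required for the test. Nanog, the pluripotency factor 77.2 kb away, was measured at 7.73 and 7.04 TPM in control and 11.5 and 14.0 TPM in DMSO-treated embryos (log2 fold change 0.71, SE 0.30, adjusted p = 0.129, limma). Dppa3 itself overlapped between groups, so the genes named here did not share a direction.

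Trdmt1, once named Dnmt2 and known as a methyltransferase of transfer RNA, was measured at 1.99 and 0.974 TPM in control and 3.04 and 1.51 TPM in DMSO-treated embryos (log2 fold change 0.39, SE 0.41, adjusted p = 0.499, limma). Nlrp5-ps, a pseudogene of the oocyte gene Nlrp5, was listed well above Nlrp5, at 24.2 and 20.4 TPM in control and 9.16 and 8.58 TPM in DMSO-treated embryos.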
